A study of Homo sapiens with 13 samples.

Results

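Arrays that carry both an IRF motif and a PU1 motif, and no other motif, were described in 3 STARR-seq libraries of MEC1 cells. They were chosen by name: every construct whose motif list held exactly IRF and PU1, in any order, copy number and flanking context. These constructs are IRF_PU1 and PU1_IRF, with 1 copy of each motif, and the alternating arrays IRF_PU1_IRF and PU1_IRF_PU1, with 3 motif copies, each in 3 numbered contexts. The 5 bp episomal library held 12 of them among 542 constructs, with 4418 barcodes of 236860. The 10 bp episomal library held the 6 arrays of 2 copies among 442 constructs, with 3031 barcodes of 210844. The integrated library held all 12 among 513 constructs, with 304 barcodes of 16189. The reference constructs were homotypic IRF or PU1 arrays of the same number of copies in the same context, and rd, 1 construct per context that carries none of the 8 motif names of the series.

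In STARR-seq the tested sequence is itself transcribed, so its activity can be read from its abundance in the reporter mRNA. MEC1 is an established cell line of chronic lymphocytic leukaemia, a cancer of B lymphocytes, and all samples carry the wild-type genotype and no treatment other than delivery of the library. For the episomal assay each transfection used 30 µg of plasmid with 5 bp or 10 bp between neighbouring motifs, and 2 mRNA samples per library were taken from duplicate transfections at 24 h, beside 1 plasmid DNA sample. For the integrated assay the 5 bp library entered a GFP-marked landing pad by CRE recombination in 8 transfections. Cells that had lost GFP were sorted at 10 to 12 days, grown for 6 to 7 more days and extracted in triplicate for mRNA and genomic DNA. Nothing in the labels ties the triplicates to separate cultures, so their spread may be technical.

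IRF motifs are bound by the interferon regulatory factors, which act in interferon responses and in lymphocyte differentiation. PU1 motifs are bound by PU.1 (the SPI1 protein), an ETS factor needed for myeloid and B cell development. In B cells PU.1 can recruit IRF4 or IRF8 to composite elements in which an ETS site and an IRF site lie next to each other, as in immunoglobulin light chain enhancers. Whether these designed arrays hold such a composite spacing was not examined, because the sources used here give no motif or array sequences.

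The sequences available for these arrays are their 12 bp random barcodes. The 3 barcodes with the most integrated mRNA are shown because each holds most of the integrated mRNA of its construct. They are written in lower case with no base marked.
IRF_PU1, context 2: gcaacaataata
IRF_PU1_IRF, context 3: ggccaactatac
PU1_IRF, context 2: atatcttacgaa

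The episomal samples held between 3850658 and 4563359 reads. Activity is the log2 of a construct's mRNA share over its plasmid DNA share, or, in the integrated library, of its summed mRNA to its summed genomic DNA in RPM (reads scaled to the sequencing total of a sample). Differences in activity between constructs were tested with limma over all such differences of a library. Adjusted p-values under 0.05 passed. These tests cover the spread between mRNA samples only. They leave out the error of the single plasmid DNA sample and the spread between barcodes, so small differences can pass. Every barcode listed in the episomal tables had at least 1 read in each sample, so the activity of weak constructs is overstated there.

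With 5 bp spacers and 2 motif copies, the mixed arrays lay mostly below IRF_IRF and mostly at or above PU1_PU1. IRF_PU1 had activities of -0.84 and -0.86 in context 1, -0.95 and -1.06 in context 2 and -1.62 and -1.58 in context 3. PU1_IRF had -0.70 and -0.66 in context 1, -1.63 and -1.61 in context 2 and -1.17 and -1.03 in context 3. The reference IRF_IRF had -0.11 and -0.08, -0.40 and -0.24, and -1.21 and -1.11 in contexts 1, 2 and 3. The samples of a construct lay close together, and in contexts 1 and 2 both mixed arrays were below IRF_IRF in every mRNA sample. PU1_PU1 had -1.52 and -1.52, -1.64 and -1.70, and -1.46 and -1.49.

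Against IRF_IRF, 5 of the 6 mixed arrays were lower and none was higher by limma. Among all 842 differences between a mixed and a homotypic array in this library, 33.7% were lower and 56.4% higher. The largest difference was that of PU1_IRF in context 2, at -1.30 ± 0.10 log2 units (SD, n = 2), which is 2.46-fold lower with an adjusted p of 1.2e-05 by limma. PU1_IRF in context 3 differed from IRF_IRF by 0.06 ± 0.03 and did not pass (adjusted p = 0.24 by limma). Against PU1_PU1, 4 of the 6 were higher and none was lower, by up to 0.84 ± 0.02 log2 units or 1.78-fold for PU1_IRF in context 1. IRF_PU1 in context 3 and PU1_IRF in context 2 did not pass against PU1_PU1, at -0.12 and 0.05. With no plasmid read minimum, IRF_PU1 in context 3 was called lower than PU1_PU1, as it was with at least 20 plasmid reads or 20 barcodes. Both orders were set against the same homotypic arrays, so these differences are not independent of each other.

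With 3 copies the mixed arrays lay below the IRF array of 3 copies in every context and near the PU1 array of 3 copies. IRF_PU1_IRF, with 2 IRF motifs around 1 PU1 motif, had activities of -1.63 and -1.64 in context 1, -2.21 and -2.20 in context 2 and -1.87 and -1.63 in context 3. PU1_IRF_PU1 had -2.0 and -2.08, -2.13 and -2.28, and -1.81 and -1.82. IRF_IRF_IRF had -0.83 and -0.60, -0.94 and -0.85, and -0.69 and -0.53, so the groups did not overlap in any context. PU1_PU1_PU1 had -1.99 and -2.09, -2.17 and -2.23, and -1.66 and -1.73. IRF_PU1_IRF in context 1 lay above PU1_PU1_PU1 in both mRNA samples and PU1_IRF_PU1 in context 3 below it, while the other 4 arrays overlapped with it in their context.

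All 6 arrays of 3 copies were lower than IRF_IRF_IRF by limma, with differences between -1.32 and -0.92 log2 units. The largest was that of PU1_IRF_PU1 in context 1 (2.50-fold lower, adjusted p = 5.3e-05 by limma). IRF_PU1_IRF, which exchanges only the middle IRF motif for a PU1 motif, was 1.89-fold, 2.47-fold and 2.20-fold lower in contexts 1, 2 and 3. Against PU1_PU1_PU1, 1 of the 6 passed, IRF_PU1_IRF in context 1 at 0.41 ± 0.06 log2 units (1.33-fold higher, adjusted p = 0.00061 by limma). The other 5 differed from PU1_PU1_PU1 by between -0.12 and 0.0048 log2 units. Their adjusted p-values by limma ran from 0.054 for PU1_IRF_PU1 in context 3 to 0.92. With no plasmid read minimum 3 of them were called lower, PU1_IRF_PU1 in contexts 2 and 3 and IRF_PU1_IRF in context 2. PU1_IRF_PU1 in context 3 was also called lower with at least 20 barcodes or with a mean over barcodes.

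The arrays of 3 copies were also less active than the mixed arrays of 2 copies. Averaged over contexts, IRF_PU1_IRF had -1.86 ± 0.06 and PU1_IRF_PU1 -2.02 ± 0.05, against -1.15 ± 0.02 for IRF_PU1 and -1.13 ± 0.05 for PU1_IRF (SD, n = 2 each). Homotypic IRF arrays of 3 copies averaged -0.74 ± 0.12, against -0.53 ± 0.07 at 2 copies. For homotypic PU1 arrays the values were -1.98 ± 0.05 at 3 copies and -1.56 ± 0.02 at 2 copies. The step between 2 and 3 copies was not tested.

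Each mixed array was also compared with an expected level, the mean activity of its homotypic counterparts on the log2 scale weighted by the copies of each motif (the copy-weighted mean). By limma 8 of the 12 arrays in the 5 bp library lay below that mean and 2 above it, beside 32.5% and 60.5% of all 418 mixed arrays. All 6 arrays of 3 copies were below it. The lowest was IRF_PU1_IRF in context 2 at -0.87 ± 0.02 log2 units (1.83-fold lower, adjusted p = 1.4e-13 by limma), and the others lay between -0.78 and -0.44. The arrays of 2 copies fell on both sides. The highest was PU1_IRF in context 3 at 0.22 ± 0.08 (1.16-fold higher) and the lowest PU1_IRF in context 2 at -0.62 ± 0.03 (1.54-fold lower). PU1_IRF in context 1 lay at 0.12 and turned to -0.04 when the mean was taken over linear activities. The median over the 12 arrays was -0.44, beside 0.36 over all 418.

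Against rd, 4 arrays of 2 copies were higher and 1 was lower, and all 6 arrays of 3 copies were lower by limma, beside 64% higher and 30.4% lower among 539 arrays. The rd constructs had activities of -1.27 and -1.23, -1.06 and -1.17, and -1.58 and -1.51 in contexts 1, 2 and 3. The differences ran from -1.09 for PU1_IRF_PU1 in context 2 (2.13-fold lower) to 0.57 for PU1_IRF in context 1 (1.48-fold higher). Arrays of 3 copies thus lay below constructs without a named motif in every context, at -0.79, -1.09 and -0.26 for PU1_IRF_PU1 and at -0.38, -1.09 and -0.20 for IRF_PU1_IRF. IRF_PU1 in context 2 was 1.08-fold above rd and lost its call with other read minimums or with a mean over barcodes. IRF_PU1_IRF in context 3 lost its call at a minimum of 20 plasmid reads.

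By edgeR's quasi-likelihood test on read counts, with TMM scaling over the 442 constructs shared by both spacers, 5 of the 6 arrays of 2 copies were lower in mRNA than in plasmid DNA at 5 bp and none was higher, beside 49.5% and 40.5% of all constructs. PU1_IRF in context 1 did not pass (log2 ratio -0.14, SE 0.07, adjusted p = 0.056 by edgeR). In a fit of the 5 bp library alone, which includes the arrays of 3 copies, 10 of 12 were lower and none higher, beside 45.2% and 42.6% of 542 constructs. The lowest was IRF_PU1_IRF in context 2 at -1.46 (SE 0.06), and the 6 arrays of 3 copies ran up to -0.89. These directions rest on the scaling. Scaled on rd, 4 of the 6 arrays of 2 copies were higher and 2 lower, while the median of all constructs moved by 0.75. Scaled by library totals all 6 were lower, and the median moved by -0.67.

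Reads per barcode bear on the weakest arrays. At 5 bp, 23.7% and 29.3% of the barcodes of 3-copy mixed arrays had a single mRNA read in the first and second mRNA sample, the lowest number a listed barcode can have. For the mixed arrays of 2 copies the shares were 16.5% and 18.0%, and for all constructs 11.6% and 13.6%. Among barcodes with at least 20 plasmid reads, the 3-copy arrays still had 8.78% and 12.9%.

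With 10 bp spacers the mixed arrays of 2 copies lay between IRF_IRF and PU1_PU1 in all 3 contexts. IRF_PU1 had activities of 0.17 and 0.16 in context 1, -0.89 and -0.90 in context 2 and -0.29 and -0.21 in context 3. PU1_IRF had -0.02 and 0.06, 0.08 and 0.18, and -0.03 and 0.0012. The references were far apart, with IRF_IRF at 1.76 and 1.77, 1.55 and 1.60, and 1.16 and 1.24. No mRNA sample of a mixed array overlapped with one of IRF_IRF or of PU1_PU1, which had -2.11 and -1.97, -1.97 and -1.89, and -1.29 and -1.16.

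All 6 were lower than IRF_IRF and all 6 were higher than PU1_PU1 by limma, beside 29.6% lower and 62.3% higher among the 642 differences of this library. The difference from IRF_IRF ran from -2.47 ± 0.05 log2 units for IRF_PU1 in context 2 (5.54-fold lower) to -1.22 ± 0.03 for PU1_IRF in context 3 (2.32-fold lower), with adjusted p-values of 1.0e-16 and 1.2e-12 by limma. The difference from PU1_PU1 ran from 0.97 ± 0.04 for IRF_PU1 in context 3 (1.97-fold higher) to 2.21 ± 0.11 for IRF_PU1 in context 1 (4.62-fold higher). The median was -1.53 against IRF_IRF and 1.63 against PU1_PU1, beside 0.50 over all 642 differences.

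Around the copy-weighted mean 3 of the 6 arrays were higher and 2 lower by limma, beside 68.9% and 23.6% of 318 mixed arrays. IRF_PU1 in context 1 was highest at 0.30 ± 0.06 log2 units (1.24-fold, adjusted p = 0.00037 by limma) and IRF_PU1 in context 2 lowest at -0.72 ± 0.06 (1.65-fold lower, adjusted p = 5.2e-06 by limma). PU1_IRF in context 3 lay at -0.0021. The median was 0.08, beside 0.53 over all mixed arrays. With a mean of linear activities, or against the more active homotypic array, all 6 were lower and none higher, so whether a mixed array exceeded its expectation at 10 bp depended on how that was formed.

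Against rd, 5 of the 6 arrays were higher and 1 lower at 10 bp by limma, beside 46.2% and 47.4% of 439 arrays. The rd constructs had -0.62 and -0.74, -0.27 and -0.35, and -0.82 and -0.93. The 5 higher arrays lay 0.44 to 0.86 log2 units above rd (1.35-fold to 1.81-fold), and IRF_PU1 in context 2 differed by -0.58 (1.5-fold lower). By edgeR the mRNA exceeded the plasmid DNA for 5 of 6 and was lower for 1, beside 45.7% and 48.6% of 442 constructs. Scaled by library totals 1 was higher and 2 were lower, with a median of all constructs that moved by -0.55.

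Between spacers, 5 of the 6 mixed arrays of 2 copies were more active at 10 bp than at 5 bp and none less active, by the edgeR test of the difference between the ratios of mRNA to plasmid DNA. Among all 442 constructs 36% were more and 41.2% less active at 10 bp. PU1_IRF in context 2 differed most, at 1.76 log2 units (SE 0.10, 3.39-fold, adjusted p = 2.4e-10 by edgeR), with activities of 0.08 and 0.18 at 10 bp against -1.63 and -1.61 at 5 bp. IRF_PU1 differed by 1.03 in context 1 and 1.36 in context 3, and PU1_IRF by 0.71 in context 1 and 1.10 in context 3. IRF_PU1 in context 2 had 0.12 (SE 0.10) and did not pass (adjusted p = 0.30 by edgeR). Its activity at 10 bp, at -0.89 and -0.90, lay beside -0.95 and -1.06 at 5 bp.

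The constructs around these arrays moved too. Averaged over contexts, IRF_IRF had 1.51 ± 0.03 at 10 bp against -0.53 ± 0.07 at 5 bp, and rd had -0.62 ± 0.08 at 10 bp against -1.30 ± 0.0018 at 5 bp (SD, n = 2 each). PU1_PU1 had -1.73 ± 0.08 at 10 bp against -1.56 ± 0.02 at 5 bp. With both libraries scaled on rd, 4 mixed arrays were more active at 10 bp and 1, IRF_PU1 in context 2, was less active at -0.59. PU1_IRF in context 1 did not pass then. The median over all constructs moved by -0.71 under this scaling. Each spacer has a plasmid pool of its own, so spacing and pool cannot be told apart.

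In the episomal libraries motif order had no common direction across contexts. At 5 bp IRF_PU1 minus PU1_IRF was -0.17 ± 0.04 log2 units in context 1, 0.62 ± 0.09 in context 2 and -0.50 ± 0.07 in context 3 (SD, n = 2). All 3 passed by limma, 1 with IRF first higher and 2 with PU1 first higher, beside 82.1% of all 84 reversed pairs that passed in either direction. At 10 bp the differences were 0.15 ± 0.06, -1.02 ± 0.09 and -0.24 ± 0.03, and all 3 passed, beside 73.8% of 84 pairs. Context 2 thus had the largest order difference in both libraries, with opposite signs. At 5 bp IRF_PU1 was 1.53-fold more active than PU1_IRF there, and at 10 bp it was 2.03-fold less active. The sign of context 1 also differed between the libraries, and its call at 10 bp (1.11-fold) was lost with a mean over barcodes or without the barcode of most plasmid reads.

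Flanking context changed the level of each design by up to 1.92-fold at 5 bp and 2.09-fold at 10 bp. At 5 bp 11 of 12 context differences of mixed arrays passed by limma, beside 76.8% of 531 over all designs, and at 10 bp 5 of 6 passed, beside 84.7% of 437. The largest at 5 bp was PU1_IRF in context 2 minus context 1, at -0.94 ± 0.01 log2 units. The largest at 10 bp was IRF_PU1 in context 2 minus context 1, at -1.06 ± 0.01. PU1_IRF varied least at 10 bp, with differences between -0.14 and 0.11. IRF_PU1_IRF in context 3 minus context 1 was the 5 bp difference that did not pass, at -0.11 ± 0.18.

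In the integrated library each barcode listed in genomic DNA either had mRNA or had none at this depth. Of the 304 barcodes of mixed IRF and PU1 arrays, 189 had mRNA in at least 1 of the 3 mRNA samples (62.2%, Wilson 95% interval 56.6 to 67.4%). Homotypic IRF arrays of 2 or 3 copies had 85.2% (79.3 to 89.6%) of 182 barcodes and homotypic PU1 arrays 44.7% (36.9 to 52.7%) of 150. The rd constructs had 19.5% (13.5 to 27.4%) of 123, and all constructs together 36.6%. Pooled over copies and contexts, the mixed arrays thus stood between both homotypic kinds. Single designs did not all follow that order. In context 3 IRF_PU1 had 78.9% (56.7 to 91.5%) against 65.0% (43.3 to 81.9%) for IRF_IRF, and PU1_IRF 43.5% (25.6 to 63.2%) against 58.8% (36.0 to 78.4%) for PU1_PU1, with intervals that overlap. The intervals cover counting error only and leave out the spread between designs and contexts. By context PU1_IRF ran from 43.5% to 76.9% and IRF_IRF from 65.0% to 94.7%. The median genomic DNA level per barcode was 20.9 RPM for mixed arrays, 22.1 RPM for IRF arrays, 21.8 RPM for PU1 arrays and 19.7 RPM for rd.

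The order was the same in each mRNA sample. Mixed arrays had mRNA for 34.9%, 41.4% and 30.3% of their barcodes in replicates 1, 2 and 3, against 64.8%, 72.0% and 57.1% for homotypic IRF arrays, 16.7%, 26.0% and 19.3% for homotypic PU1 arrays and 7.32%, 13.0% and 8.13% for rd. Among the 28 motif pairs of the series, the share with mRNA in any sample ranked IRF with PU1 at number 3, after NFKB with PU1 at 67.4% and FOXO with IRF at 63.9%. All mixed arrays of 2 or 3 copies had 37.1%.

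Among the mixed designs the share was highest for IRF_PU1, with 47 of 61 barcodes (77.0%, 65.1 to 85.8%). IRF_PU1_IRF had 58 of 91 (63.7%, 53.5 to 72.9%), PU1_IRF 27 of 49 (55.1%, 41.3 to 68.1%) and PU1_IRF_PU1 57 of 103 (55.3%, 45.7 to 64.6%). These Wilson intervals overlap between neighbours, and that of IRF_PU1 overlaps with that of IRF_IRF, at 83.9% (72.2 to 91.3%). By context IRF_PU1 had 16 of 22, 16 of 20 and 15 of 19 barcodes with mRNA, and PU1_IRF 7 of 13, 10 of 13 and 10 of 23. IRF_PU1_IRF had 14 of 21, 19 of 29 and 25 of 41, and PU1_IRF_PU1 23 of 41, 17 of 28 and 17 of 34. Each single design has few barcodes, so its interval is wide.

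In several integrated constructs most of the summed mRNA came from 1 barcode. IRF_PU1 in context 2 had the highest activity among the mixed arrays, at 7.79, 7.97 and 8.02 log2 units. Its barcode gcaacaataata alone held 149274, 175310 and 122120 RPM of mRNA, which is 14.9%, 17.5% and 12.2% of each mRNA sample and 99.7% of the mRNA of that construct. The same barcode had 165, 243 and 144 RPM in genomic DNA and ranked first in the whole table. In the 5 bp episomal table it carried the same construct name, with 5 plasmid reads and 1 and 4 mRNA reads. Without it the activity of IRF_PU1 in context 2 was 0.20.

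The next barcodes were far smaller. Barcode ggccaactatac of IRF_PU1_IRF in context 3 had 3113, 2607 and 5827 RPM of mRNA, ranked 7 in the table and held 75.1% of the mRNA of its construct. Barcode atatcttacgaa of PU1_IRF in context 2 had 1372, 889 and 1108 RPM, ranked 34 and held 83.7%. IRF_PU1 in context 3 had 54.5% of its mRNA in 1 barcode. Of the 304 integrated barcodes, 162 were named in the 5 bp episomal table too, and 161 of them had the same construct name.

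Activities of the other integrated arrays of 2 copies spread widely between contexts. IRF_PU1 had 0.01, 0.85 and 0.37 in context 1 and 0.86, 0.96 and 1.49 in context 3. PU1_IRF had -0.71, -1.08 and -1.71 in context 1, 2.06, 1.27 and 1.93 in context 2 and -0.79, -1.54 and -1.38 in context 3. The reference IRF_IRF had 0.95, 1.12 and 1.03, 1.92, 1.5 and 1.83, and 0.09, -0.82 and -0.66. PU1_IRF in context 3 was the lowest mixed array, with a mean of -1.24. PU1_PU1 averaged -2.59, -1.34 and -1.09, and the arrays of 3 copies averaged between -0.86 for IRF_PU1_IRF in context 1 and 2.08 for that design in context 3.

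Against homotypic IRF arrays 4 of the 12 integrated arrays were lower and 1 higher by limma, beside 15.5% and 18.3% of 775 differences. Against homotypic PU1 arrays 6 were higher and none lower. The higher call against IRF arrays was IRF_PU1 in context 2, at 6.18 ± 0.30 log2 units (SD, n = 3, adjusted p = 0.010 by limma). The lowest difference was that of IRF_PU1_IRF in context 1, at -2.42 ± 0.45 (5.36-fold lower, adjusted p = 0.026 by limma). All 11 called differences had the same sign in each of the 3 replicates. They were called on these same replicates, so neither this nor the values with 1 replicate left out is separate support. Without any 1 replicate they kept their size, at 6.03 to 6.33 for IRF_PU1 in context 2 and -2.63 to -2.18 for IRF_PU1_IRF in context 1 against IRF arrays. With 2 replicates left none of the 775 differences passed (lowest adjusted p = 0.065 by limma), so the loss of calls there says nothing about single arrays. None of the 11 calls was left when the barcode of most mRNA was taken out of each construct. Without those barcodes 11 of the 12 differences from IRF arrays were below 0, with a median of -1.60, and 11 of the 12 from PU1 arrays were above 0, with a median of 1.52. How many of all 775 differences passed without those barcodes is not given here. The loss of the 11 calls can therefore not be told from a general loss of calls in the library.

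Against the copy-weighted mean 2 integrated arrays were higher and none lower, beside 12.5% and 6.93% of 375 arrays. They were IRF_PU1 in context 2 at 7.72 and in context 3 at 1.88, and both calls were lost without the barcode of most mRNA. Without any 1 replicate they lay at 7.53 to 7.99 and 1.76 to 2.11, where none of the 375 arrays passed. The lowest difference was that of IRF_PU1_IRF in context 1 at -1.45 ± 0.42, which did not pass (adjusted p = 0.070 by limma). Against rd 6 were higher and none lower, beside 27.8% and 27.6% of 510 arrays. The rd constructs averaged -1.0, 0.75 and -3.77 in contexts 1, 2 and 3, and 4 of the 6 calls were in context 3. A single barcode held 67.3%, 84.0% and 46.0% of the rd mRNA in these contexts, and without it rd averaged -2.57, -1.96 and -4.84. Without the barcode of most mRNA all 12 mixed arrays lay above rd, by 0.68 to 5.13 log2 units, and 5 passed. How many of all 510 arrays lay above rd or passed there is not given here. The position of the mixed arrays can therefore not be told from a general rise against rd. IRF_PU1 was above PU1_IRF in all 3 integrated contexts and in each replicate, at 1.57 ± 0.75, 6.17 ± 0.49 and 2.34 ± 0.62 log2 units in contexts 1, 2 and 3. The difference passed in contexts 2 and 3, beside 15.5% of 84 pairs in either direction, and missed the threshold in context 1 (adjusted p = 0.094 by limma). Neither call was left without the barcode of most mRNA. Without it IRF_PU1 still averaged above PU1_IRF in each context. IRF_PU1 had means of 0.16, 0.20 and 0.30 in contexts 1, 2 and 3, and PU1_IRF had -1.89, -0.73 and -1.85. Of the 12 context differences 5 passed, beside 11.7% of 489, and none was left without that barcode. For the copy-weighted mean, motif order and contexts, the share of all arrays that passed without the barcode of most mRNA is not given here. The calls lost there can therefore not be told from a general loss of calls.

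By limma on log2 RPM, 4 integrated arrays were higher in mRNA than in genomic DNA and 4 were lower, beside 13.5% and 55.9% of 513 constructs. The higher ones were IRF_PU1 in contexts 2 and 3, IRF_PU1_IRF in context 3 and PU1_IRF in context 2. Each of these 4 held between 54.5% and 99.7% of its mRNA in a single barcode, and none was higher without it. The lower calls depended on the scaling, and fewer passed with 2 replicates left. All 4 lower arrays had activities below 0 in each of the 3 replicates, from which they were called. Without replicate 1, 2 or 3 there were 2, 0 and 2 lower arrays, and 4 were higher each time. Centred on rd 8 arrays were higher and 0 lower. Centring subtracts the mean of rd, -1.34 over contexts, from every construct. How many of all 513 constructs were higher then is not given here, so this count says nothing particular about the mixed arrays. Without centring the median over the 12 arrays was -0.25, beside -1.45 over all constructs.

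PU1 was also set beside the other partners of IRF as values. With 5 bp spacers, exchanging the middle motif of IRF_IRF_IRF for PU1 gave a mean difference of -1.12 ± 0.06 log2 units over contexts, against -1.73 ± 0.11 for CTCF, -0.55 ± 0.04 for RUNX3, -0.39 ± 0.08 for MYC, -0.08 ± 0.03 for FOXO, 0.26 ± 0.06 for NFKB and 1.04 ± 0.06 for MEF2 (SD, n = 2). CTCF, known for insulation and chromatin loops, was the partner with a larger drop in this design. In arrays of 2 copies at 5 bp MYC had a larger drop too. IRF_PU1 differed from IRF_IRF by -0.62 ± 0.09, beside -2.03 ± 0.04 for CTCF and -0.76 ± 0.0017 for MYC in second place. PU1_IRF differed by -0.61 ± 0.02, beside -2.08 ± 0.08 for CTCF and -0.75 ± 0.08 for MYC in first place. Exchanging the middle motif of PU1_PU1_PU1 for IRF gave -0.04 ± 0.00067, against 1.64 ± 0.07 for MEF2, 0.97 ± 0.02 for NFKB, 0.45 ± 0.00018 for FOXO, 0.22 ± 0.0022 for RUNX3, 0.19 ± 0.0051 for MYC and -0.19 ± 0.0070 for CTCF. Among these partners IRF and CTCF gave the mean values below 0 at 5 bp, but their contexts fell on both sides of 0. IRF ran from -0.12 to 0.0048 by context, CTCF from -0.46 to 0.07 and MYC from -0.0038 to 0.33. In the integrated library the same exchange gave 1.41 ± 0.29 for IRF (SD, n = 3), within a range of -0.00033 ± 0.59 for MYC to 1.64 ± 0.37 for MEF2, and 0.43 ± 0.43 for CTCF. At 10 bp IRF with PU1 in second place differed from IRF_IRF by -1.84 ± 0.02, beside -4.04 ± 0.08 for CTCF, -1.88 ± 0.06 for MYC, -1.06 ± 0.01 for FOXO, -0.81 ± 0.01 for RUNX3, -0.64 ± 0.01 for MEF2 and -0.22 ± 0.04 for NFKB. In the integrated library the exchange of the middle IRF motif for PU1 gave -1.22 ± 0.32 (SD, n = 3), within a range of -2.53 ± 0.46 for NFKB to 0.04 ± 0.40 for FOXO over the 7 partners. For PU1 it ran from -2.42 in context 1 to -0.06 in context 3, where 1 barcode held 75.1% of the mRNA of IRF_PU1_IRF. The SDs of these partner values are over mRNA samples of a mean over contexts and leave out the spread between contexts. At 5 bp PU1_IRF minus IRF_IRF ran from -1.30 to 0.06 by context, and the same difference for MYC from -1.02 to -0.37. For the middle motif of IRF_IRF_IRF at 5 bp it ran from -1.31 to -0.92 for PU1 and from -1.87 to -1.53 for CTCF. The partner values share the homotypic arrays they are set against and were not tested against each other.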

How the data were processed

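Per the file headers, the episomal tables hold the authors' raw counts of reads for each barcode in plasmid DNA and mRNA, and most barcodes have a construct name. For the integrated library the authors deposited RPM values per barcode (reads scaled to the sequencing total) for 3 mRNA and 3 genomic DNA samples, and counts for plasmid DNA. Every integrated barcode had at least 2.02 RPM of genomic DNA in each sample. Read alignment, barcode counting and their versions: not given in the sources used here. The tables hold 9 more columns that no sample label matches, and these were not used.

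The members, lists and comparisons were chosen with earlier results of these data known. Named episomal barcodes with at least 5 plasmid reads were summed per construct, with a minimum of 5 such barcodes (integrated: 3). Reads of unnamed barcodes (16.6% to 18.5% of a sample) stayed out. The 442 constructs common to both episomal libraries were fitted together in 4 groups with edgeR 4.0.16 in R 4.3.3. With 1 plasmid DNA sample per library, its spread was taken from the mRNA samples. Differences between constructs per mRNA replicate, and the integrated log2(RPM + 0.5) values, were fitted with limma 3.58.1 over all features of a library. P-values were adjusted by Benjamini-Hochberg. Same-numbered integrated mRNA and genomic DNA samples did not deviate together (r between -0.03 and 0.05 over 513 constructs). The fit of mRNA against genomic DNA therefore did not use the number as a pairing. Integrated activities per replicate, and the differences between constructs formed from them, did set each mRNA sample against the same-numbered genomic DNA sample. The RPM values lay on an even grid but could not be turned into whole reads, so they were given no count test. The fits were tested on simulated data. Named with values per replicate were all arrays of 2 copies, the arrays of highest and lowest activity and difference from the copy-weighted mean in each library, and their references. Alternatives were DESeq2 1.42.0, other scalings, read and barcode minimums, pseudocounts (0.1 and 2 RPM), other summaries and expectations, and leaving out single replicates. Leaving out the barcode of most mRNA and averaging the genomic DNA samples were added after seeing the data.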

Additional observations from a re-analysis of the deposited data

Results flagged for a closer look

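The ratio of mRNA to plasmid DNA differed between the spacer libraries for 5 mixed arrays by the edgeR test of the difference of ratios, 10 bp minus 5 bp. The log2 differences were 1.03 for IRF_PU1 in context 1, 1.36 for IRF_PU1 in context 3, 0.71 for PU1_IRF in context 1, 1.76 for PU1_IRF in context 2 and 1.10 for PU1_IRF in context 3. Scaled on rd, PU1_IRF in context 1 no longer passed. Spacing and plasmid pool cannot be told apart.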

How the results depend on the processing

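Of the 1668 values of single arrays under an alternative, 1461 kept their direction and their side of the threshold, 136 lost a call, 37 gained one and 34 turned sign. Of 343 counts and shares, 260 stayed within 1.5 times or inside their interval and 83 moved. The causes of these moves were not tested beyond what each alternative removes. Scaled on rd, the 5 bp ratio of mRNA to plasmid DNA was higher for 4 arrays and lower for 2, with IRF_PU1 at 0.44 and 0.29 in contexts 1 and 2 and PU1_IRF at 0.61 and 0.19 in contexts 1 and 3. The spacer difference then had 1 lower array, IRF_PU1 in context 2 at -0.59. By library totals the 10 bp ratio was higher for 1 array and lower for 2, with IRF_PU1 at -0.25 and PU1_IRF at -0.015 in context 3.

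Against homotypic PU1 arrays at 5 bp, where none was lower, 4 were lower with no plasmid read minimum, 1 with at least 20 plasmid reads, 2 with at least 20 barcodes and 1 with a mean over barcodes. Against the copy-weighted mean at 5 bp, 1 array was higher with a mean over barcodes, 1 with a linear expectation and 0 against the stronger homotypic array, with PU1_IRF in context 1 at -0.044 and -0.59 under these 2 expectations. At 10 bp both expectations gave 0 higher and 6 lower. IRF_PU1 in context 1 was then at -0.70 and -1.60, PU1_IRF in context 1 at -0.85 and -1.75 and PU1_IRF in context 2 at -0.57 and -1.45. Motif order at 10 bp had 0 higher with a mean over barcodes or without the barcode of most plasmid reads. Context differences at 10 bp had 1 higher under each of these and with at least 20 plasmid reads, with PU1_IRF between contexts 2 and 1 at -0.015 for the mean over barcodes.

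In the integrated ratio of mRNA to genomic DNA, the fit with a replicate block of same-numbered samples left 2 lower arrays in place of 4. With at least 20 barcodes 9 of the 12 arrays were left, and 2 of them were higher. IRF_PU1 in context 3 and PU1_IRF in context 2, with 19 and 13 barcodes, were not among them. Centred on rd, which moves every construct by the same amount, 8 were higher and 0 lower. IRF_PU1_IRF was then at 0.48 and 0.85 in contexts 1 and 2, PU1_IRF at 0.18 and 0.10 in contexts 1 and 3 and PU1_IRF_PU1 at 0.82 and 1.32 in contexts 2 and 3. Without the barcode of most genomic DNA 1 was higher and 2 were lower. Without the barcode of most mRNA 0 were higher. PU1_IRF in context 2 was at -0.73 under both. Leaving out 1 replicate gave 0 to 2 lower. For the spacer difference the replicate block across libraries gave 5 higher and 0 lower, as without it.

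Integrated differences from homotypic IRF arrays had 0 higher without the barcode of most genomic DNA and without the barcode of most mRNA, which also gave 0 lower. With at least 20 barcodes 7 of the 12 differences were left, with 0 higher. The higher call, IRF_PU1 in context 2, was not among them, as IRF_IRF had 19 barcodes there. Without the barcode of most genomic DNA IRF_PU1 and PU1_IRF in context 2 were at -1.75 and -2.68, and without that of most mRNA IRF_PU1 in context 2 was at -1.46. Against PU1 arrays these removals gave 2 and 0 higher. Leaving out 1 replicate gave 0 higher and 0 lower in each of these comparisons, where no difference of any array passed with 2 replicates left. Against the copy-weighted mean there was 1 higher with at least 20 plasmid reads, with a pseudocount of 0.1 or against the stronger homotypic array. There were 0 higher without either barcode or without any 1 replicate. With at least 20 barcodes 6 of the 12 arrays were left, with 0 higher, and the 2 higher calls were not among them. Lower were 1 with at least 20 barcodes, 1 with a linear expectation and 6 against the stronger homotypic array. IRF_PU1 in context 2 was at -0.17 without the barcode of most genomic DNA, and PU1_IRF_PU1 at -1.20 and -2.16 in contexts 2 and 3 against the stronger array. Against rd, 2 of the 9 arrays left with at least 20 barcodes were lower. Without the barcode of most genomic DNA 2 were lower too (IRF_PU1 in context 2 at -0.72). With the mean of the genomic DNA samples or a pseudocount of 2, 1 was lower. Order had 1 higher with at least 20 plasmid reads or a pseudocount of 0.1, 0 without either barcode and 0 to 1 without 1 replicate. Of all 84 reversed pairs 7, 0 and 0 passed without replicate 1, 2 and 3. Context differences had 0 higher and 0 lower without any 1 replicate, where none of all 489 passed. With at least 20 barcodes 7 of the 12 were left, with 0 lower, and the 2 lower calls were not among them. Without either barcode there were 0 higher and 0 lower. IRF_PU1 in context 2 minus context 1 was at -0.14 without the barcode of most genomic DNA, and context 3 minus context 2 at 0.10 without either. The share of integrated barcodes with mRNA was 34.9%, 41.4% and 30.3% in single replicates. Few barcodes per integrated construct limit what its summed mRNA can show.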
